A study of Mus musculus with 2 samples.

Results

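Mature skeletal muscle lies around the callus of a broken mouse tibia, and 1050 of the 5919 analyzed positions on 2 tissue sections belonged to it. The data are Visium spatial transcriptomes, in which pairs of gene probes that bind to a fixed section are read out at barcoded spots with centers 100 µm apart, so that every unique molecular identifier (UMI) is 1 probe pair counted at a known place. Muscle spots were selected on the measured values themselves: a spot with at least 1000 UMIs belonged to muscle when the CPM (UMIs of a gene scaled to a total of 1e+06) of *Myot*, *Ckmt2*, *Scn4a* and *Asb2* summed to at least 1000. A spot is a small region that can hold several cells or parts of them, and fewer muscle fibers in a spot and less RNA per fiber cannot be told apart in its counts.

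Each section carried the callus of a control and of an Nf1Postn mouse side by side, since the study embedded such pairs in the same block, each collected 10 days after a pinned tibial fracture at 8 weeks of age. The control was a female *Nf1* +/fl littermate without Cre, and the Nf1Postn mouse carried Postn-cre with the genotype *Nf1* fl/-. Cre driven by the periostin promoter recombines the floxed allele in the periosteum. The study reports that periostin protein is found more widely in the callus after fracture, and recombination in the muscle spots was not measured. The null allele is germline and is therefore present in every tissue of the Nf1Postn mouse, its muscle included. The floxed allele of the control is intact in the absence of Cre, so the pair differed by the germline allele as well as by the Cre-driven deletion. Excess soft tissue had been trimmed from the bones before fixation, so the amount of muscle on a section also depends on what was left on the bone, and the tissue was decalcified in EDTA. The labels number the sections as biological replicates, whereas the sources used here do not say whether they came from 1 block or from separate pairs of mice. The sections were therefore not counted as separate animals and no test between genotypes was run, and the intervals given here are exact 95% intervals that cover counting error only.

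Skeletal muscle contracts when myosin of the thick filaments pulls on actin of the thin filaments within the sarcomere, which is anchored at the Z discs. A nerve impulse opens sodium channels of the fiber membrane and releases calcium from the sarcoplasmic reticulum, and calcium bound by troponin frees the thin filament. Fibers differ in the myosin heavy chain they carry, from slow oxidative fibers with *Myh7* through fast *Myh2* and *Myh1* fibers to the fastest, largely glycolytic *Myh4* fibers that predominate in most leg muscles of the mouse. Muscle beside a fracture also holds satellite cells, which can form new fibers that pass through a stage with embryonic and perinatal myosins.

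Several of the genes that carried most UMIs in the muscle spots code for fast contractile proteins. A count also depends on how well the probes of a gene work, so levels are compared between groups, and between genes only as shares of adult myosin, with the same limit. The 250 bases before the start of 4 of them are shown as the regulatory sequence next to transcripts that mark the tissue, with capitals marking matches to 4 motifs known from muscle promoters. The motifs searched were the E-box CAGCTG, which is its own reverse complement, the binding site of MEF2 and the CArG box bound by serum response factor, these 3 on both strands, and the TATA element TATAA on the transcribed orientation. The sequences are from RefSeq on build GRCm38.p6, run 5′ to 3′ in the direction of the gene, and come from chr11:67237562-67237811 (plus strand) for *Myh4*, chr2:164779735-164779984 (minus strand) for *Tnnc2*, chr8:123894776-123895025 (minus strand) for *Acta1* and chr7:127211358-127211607 (plus strand) for *Mylpf*.
*Myh4* (fast myosin heavy chain): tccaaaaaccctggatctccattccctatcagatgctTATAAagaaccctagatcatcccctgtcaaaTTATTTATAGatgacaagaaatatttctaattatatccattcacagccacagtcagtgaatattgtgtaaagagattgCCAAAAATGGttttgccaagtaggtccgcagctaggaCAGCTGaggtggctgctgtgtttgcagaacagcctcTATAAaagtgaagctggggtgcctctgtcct
*Tnnc2* (fast troponin C): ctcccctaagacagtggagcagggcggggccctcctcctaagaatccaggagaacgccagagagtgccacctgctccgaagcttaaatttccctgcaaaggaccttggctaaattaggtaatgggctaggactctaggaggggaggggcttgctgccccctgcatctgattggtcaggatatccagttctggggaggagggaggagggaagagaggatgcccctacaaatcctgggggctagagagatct
*Acta1* (skeletal muscle actin): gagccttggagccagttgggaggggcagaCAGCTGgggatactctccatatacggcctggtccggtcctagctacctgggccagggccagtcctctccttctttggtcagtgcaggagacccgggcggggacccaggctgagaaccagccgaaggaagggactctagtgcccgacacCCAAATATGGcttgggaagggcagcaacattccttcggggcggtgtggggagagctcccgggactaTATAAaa
*Mylpf* (fast regulatory light chain): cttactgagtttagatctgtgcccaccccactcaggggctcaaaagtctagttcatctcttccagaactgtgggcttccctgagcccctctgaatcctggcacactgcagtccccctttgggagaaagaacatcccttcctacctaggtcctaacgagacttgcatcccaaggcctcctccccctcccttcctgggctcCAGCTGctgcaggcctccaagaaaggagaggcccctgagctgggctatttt

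In the *Myh4* sequence the E-box began 67 bases before the start, the CArG box 104 and the MEF2 site 182, and TATAA matched 31 and 213 bases before it. In *Acta1* the CArG box began 73 bases before the start, the E-box 221 and TATAA 7, and *Mylpf* held an E-box 51 bases before its start. *Tnnc2* held none of these letters. Of the 29 thin and thick filament genes in the tables, 22 were found in the promoter table. The E-box was present before 9 of these 22 (40.9%) and before 14.7% of all 27018 genes, the MEF2 site before 5 (22.7%) and 3.41%, and the CArG box before 3 (13.6%) and 1.62%. TATAA was present before 4 (18.2%) and 18.4%. A match of letters describes the sequence and is not evidence that a factor binds there, and no binding was measured.

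Muscle spots were much more frequent in the Nf1Postn tissue. They made up 67 of 1655 control spots (4.05%, interval 3.15 to 5.11) and 255 of 1126 Nf1Postn spots (22.6%, 20.2 to 25.2) of section 1, and 72 of 1695 control spots (4.25%, 3.34 to 5.32) and 656 of 1443 Nf1Postn spots (45.5%, 42.9 to 48.1) of section 2. The control shares were alike on both sections, whereas the Nf1Postn share of section 2 was about double that of section 1. The muscle spots held 325194 UMIs in section 1 control, 560735 in section 1 Nf1Postn, 294358 in section 2 control and 2552500 in section 2 Nf1Postn, so the last group weighs most in pooled values. Their median depth was 4638.5, 1879.5, 2576.75 and 3384.25 UMIs in the same order. Of the 2711 grid positions under tissue on both sections, 183 held a muscle spot on both, 176 of them in Nf1Postn. Each pair of positions shares a barcode but not a piece of tissue.

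The rule has a low count behind it in shallow spots. At a depth below 2000 UMIs it is met by 2 marker UMIs, which was all that 121 muscle spots (11.5%) had: 2 in section 1 control, 64 in section 1 Nf1Postn, 16 in section 2 control and 39 in section 2 Nf1Postn. All 4 genes were detected in 398 of the 1050 spots. The spots just inside the threshold had summed levels of 1000, 1000.75 and 1001.25 CPM, and those just outside had 999.251, 999.001 and 988.631 CPM, the last from 1 UMI. In spots between 500 and 1000 CPM, muscle transcripts were present at lower levels: *Ckm*, muscle creatine kinase, was at 10089 CPM in 260 control spots and 20240 CPM in 412 Nf1Postn spots, against 20402 and 37967 CPM in the spots above 1500 CPM. The threshold therefore cuts through a gradient.

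The 4 genes that define the region serve different parts of the fiber, and their levels are given as a description of the choice. *Myot* codes for myotilin of the Z disc and was at 338 CPM in section 1 control, 405 in section 1 Nf1Postn, 319 in section 2 control and 561 in section 2 Nf1Postn. *Ckmt2*, the mitochondrial creatine kinase (chr13:92001506-92025005 on mm39), was at 391, 665, 421 and 724 CPM in the same order, which is used for all series of 4 values from here on. *Scn4a*, the sodium channel of the fiber membrane (chr11:106209418-106244115), was at 517, 435, 367 and 532 CPM. *Asb2*, a subunit of a ubiquitin ligase of muscle (chr12:103287401-103322261), was at 424, 465, 384 and 469 CPM. *Myot*, *Ckmt2* and *Asb2* were higher in Nf1Postn in both sections, whereas *Scn4a* was lower in section 1 and higher in section 2. Since these genes chose the spots, their order is no result about the genotypes.

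Other muscle genes, which the rule did not use, were also higher in these spots. The genes with the highest ratio of muscle to other spots, apart from those of the rule, were *Myh7* at a log2 ratio of 4.02, the tubulin *Tuba8* at 3.58, *Scn4b* at 3.47, *Ucp3* at 3.46, and the myosin light chain kinases *Mylk4* and *Mylk2* at 3.36 each. Thin and thick filament genes gave 21.2%, 20.8%, 14.99% and 23.3% of all UMIs of the muscle spots, against 3.26% in the other spots. In the 102 spots with embryonic myosin described below, 26 of them muscle spots, they gave 13.2%. These genes were not independent of the choice, since fibers carry them together with the 4 markers, and so they do not check the label. Of the 11830 genes compared, 764 (6.46%) were at least 2-fold higher in muscle than in other spots of both sections and 2356 (19.9%) were at least 2-fold lower. All 15 thin filament, 14 thick filament, 14 Z disc and 16 calcium release genes with enough UMIs were among the higher ones, as were 14 of 15 genes of glycogen and glycolysis and 17 of 19 of mitochondria and fat use. None of the 14 fibroblast genes was higher and 11 were lower. The 6 cardiac genes, among them the atrial peptide *Nppa*, were each under 10 CPM and summed to 10.2 CPM.

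**Figure D1:**
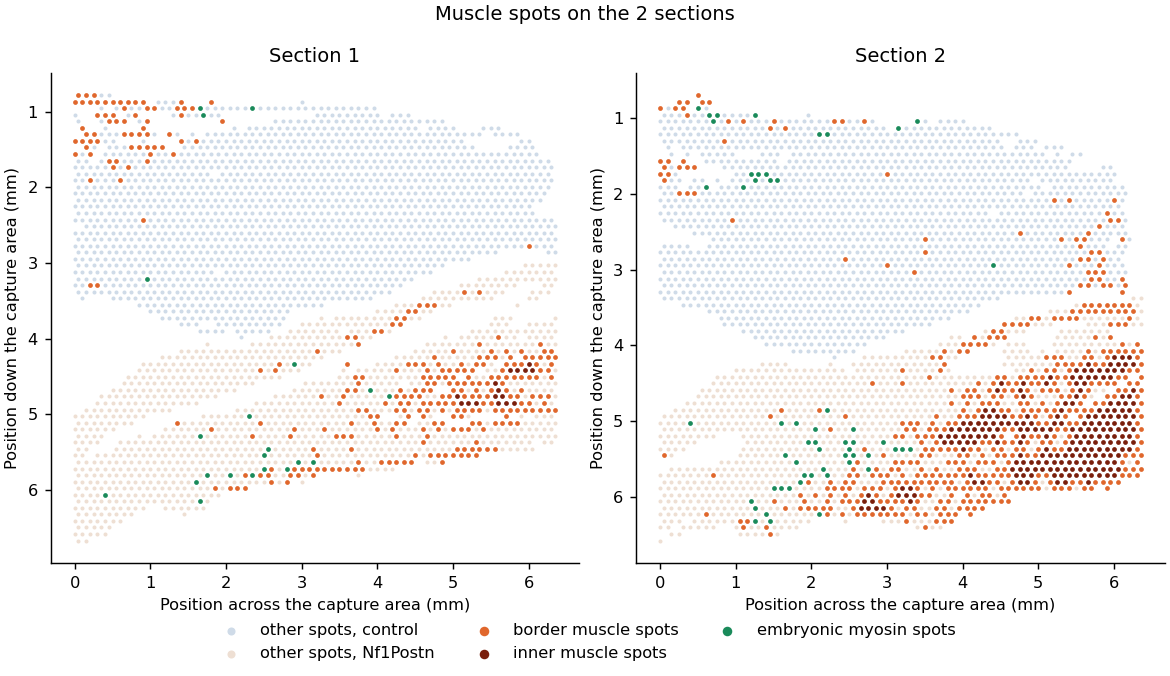
Position of every spot with a genotype on both sections, in mm on the capture area, with other spots in pale blue (control) or beige (Nf1Postn), border muscle spots in orange, inner muscle spots (all 6 neighbors are muscle) in dark red and spots with embryonic myosin that are not muscle spots in green. Muscle lay toward 1 end of the Nf1Postn tissue, with 580 of 656 spots in 1 patch in section 2 and 144 of 255 in section 1. The 139 control muscle spots were scattered in small patches without any inner spot.

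Muscle lay in a compact field in section 2 Nf1Postn, in a broken one in section 1 Nf1Postn and in scattered patches in control. The groups had 21, 38, 33 and 30 separate patches. The share of muscle among the neighbors of muscle spots was 48.5%, 53.1%, 33.8% and 78.4%, so the genotypes were close on section 1. The largest run of touching muscle spots held 144 of 255 spots in section 1 Nf1Postn and 580 of 656 in section 2 Nf1Postn, but only 16 of 67 and 15 of 72 in control. A spot whose 6 neighbors were all muscle, called inner here, was found 16 times in section 1 Nf1Postn, 221 times in section 2 Nf1Postn and never in control. All control muscle spots were therefore border spots, which have at least 1 neighboring position that did not meet the rule. Such a position can still hold muscle below the threshold or be shallow or empty. Along the capture area, muscle made up 0.330% and 3.02% of the Nf1Postn spots in the first 1600 µm of sections 1 and 2, and 71.1% and 87.9% of those from 4800 to 6400 µm. The median distance of a muscle spot to the nearest cartilage or bone spot, defined by *Acan* at 3000 CPM or *Bglap* at 2000 CPM, was 458, 346, 137 and 800 µm. Section 2 control thus had its muscle closest to the skeletal tissue of the callus.

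The thin filament carried fast troponins and skeletal actin in every group. *Tnnt3*, the fast troponin T that holds the troponin complex on tropomyosin, was at 27082, 32003, 17706 and 33449 CPM. *Tnnc2*, which binds the activating calcium, was at 24837, 27840, 17604 and 29099 CPM. *Acta1* was at 24099, 20641, 18991 and 22612 CPM. For each of these genes section 2 control was the lowest group, and for *Acta1* section 1 control was the highest. The 15 thin filament genes had a median log2 ratio of Nf1Postn over control of 0.00 in section 1, 0.39 in section 2 and 0.17 when both were pooled. A gene was called when it differed at least 2-fold the same way in both sections, which held for 0.212% (higher in Nf1Postn) and 0.388% (lower) of all 2834 genes compared. None of the 15 was called, as for most lists of this size at such shares, so calls are not read as results about a list.

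Thick filament genes were likewise lowest in section 2 control for the most part. *Myh4* was at 42710, 37114, 19942 and 47786 CPM, and its fast regulatory light chain *Mylpf* at 15415, 15662, 11574 and 19575 CPM. Titin (*Ttn*), the giant spring between Z disc and myosin, was at 6055, 6208, 4545 and 8645 CPM. *Mylk2*, the kinase of the regulatory light chain, was at 560, 1015, 510 and 1171 CPM. *Mylk2* thus separated the genotypes in both sections, with a pooled log2 ratio of 1.09, but in section 1 by less than 2-fold. The list's median log2 ratio over 14 genes was -0.01 in section 1 and 0.66 in section 2. At the Z disc, desmin (*Des*), which ties sarcomeres together, was at 5154, 3913, 4362 and 3790 CPM and thus lower in Nf1Postn on both sections, and *Myoz1*, a calcineurin-binding protein of fast fibers, was at 2971, 4004, 2038 and 3961 CPM and thus higher. *Tcap*, the cap of titin, was at 3469, 3244, 2225 and 3607 CPM, without a common direction.

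The calcium handling genes described here are those of fast fibers and of all fibers alike. *Pvalb*, the calcium buffer parvalbumin, was at 34632, 24605, 18403 and 29956 CPM, and *Atp2a1*, the calcium pump of fast fibers, at 20991, 15867, 13314 and 20448 CPM. The release channel *Ryr1* was at 2651, 2482, 1624 and 2671 CPM. *Pvalb* and *Atp2a1* were lower in Nf1Postn than in control in section 1 and higher in section 2, and so was the list of 14 genes, with median log2 ratios of -0.34 and 0.66.

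Energy genes supply the fiber with ATP. *Ckm*, which regenerates ATP from phosphocreatine, was at 23423, 33060, 14000 and 36554 CPM, higher in Nf1Postn on both sections but by under 2-fold in section 1, with a pooled log2 ratio of 0.92. *Pygm*, the phosphorylase that opens glycogen, was at 4502, 3761, 2759 and 4355 CPM, and *Eno3*, the muscle enolase, at 6753, 6716, 4338 and 7406 CPM. The 15 compared genes of glycogen and glycolysis had median log2 ratios of -0.20 in section 1 and 0.78 in section 2, so in section 1 *Ckm* and the median of its list had opposite signs. Of 19 genes of mitochondria and fat use 18 could be compared, and their median log2 ratio was 0.33 in section 1, 0.72 in section 2 and 0.52 when pooled. *Slc25a4*, the ADP/ATP carrier, was at 4271, 5004, 3105 and 5091 CPM, and *Ucp3*, an uncoupling protein of muscle mitochondria, at 105, 198, 47.6 and 181 CPM. Myoglobin (*Mb*), which stores oxygen, was at 673, 687, 595 and 605 CPM and differed little. The list summed to 12113, 14358, 9577 and 15112 CPM. Of the genes of both lists, *Pdk4* alone was called, beside 0.212% of all genes.

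The dystrophin complex holds the fiber membrane to the matrix, and its member *Sgca* was at 378, 280, 221 and 309 CPM. The chloride channel *Clcn1* was at 157, 116, 71.3 and 136 CPM. The 12 compared genes of the list had median log2 ratios of -0.22 and 0.32. Genes of the neuromuscular junction were low, with 809.6 CPM summed over 16 genes. *Chrne*, the subunit of the adult receptor, was at 64.6, 127, 74.7 and 128 CPM, whereas *Chrna1*, a subunit of every receptor that spreads over the membrane of denervated and immature fibers, was at 86.1, 35.7, 139 and 34.5 CPM. The fetal subunit *Chrng* had 21 UMIs in all muscle spots. *Chrna1* had too few UMIs in section 1 to be among the genes compared. Among the genes of atrophy, the ubiquitin ligase *Trim63* was at 188, 221, 74.7 and 240 CPM and its partner in wasting *Fbxo32* at 123, 53.5, 57.8 and 67.8 CPM, so the pair had no common direction in section 1.

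**Figure D2:**
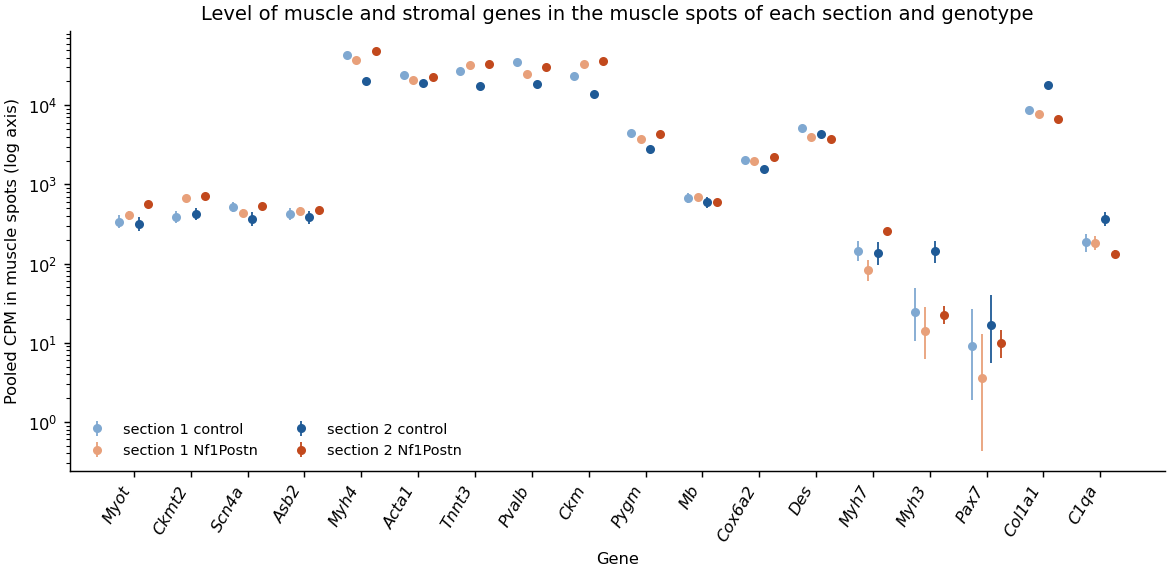
Pooled level (CPM, log axis) of 18 genes in the muscle spots of each section and genotype, with exact Poisson 95% intervals for counting error. *Myh4* lies between 19942 and 47786 CPM in the 4 groups, section 2 control is the lowest group for *Myh4*, *Acta1*, *Tnnt3* and *Pvalb*, and it is the highest for *Col1a1* and *C1qa*.

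The muscle spots also held other cells, and these differed between the groups. The fibroblast list, led by the collagens *Col1a2* and *Col1a1*, summed to 30468, 31931, 61425 and 24136 CPM, against 121561 CPM in the other spots. The macrophage list, led by the complement subunit *C1qa*, summed to 800, 719, 1430 and 507 CPM, with 4 of its 14 genes under 10 CPM. In both lists section 2 control was the highest group and section 2 Nf1Postn the lowest, and no gene of either list was at 0. The erythroid list, led by the globin *Hbb-bs*, summed to 163, 1304, 1872 and 1518 CPM, the neutrophil and marrow list, led by *Camp*, to 76.9, 435, 183 and 123 CPM, and the Schwann list, led by *Pmp22*, to 258, 367, 476 and 761 CPM. The median log2 ratio of Nf1Postn over control was 0.10 in section 1 and -1.36 in section 2 for 12 fibroblast genes, and -0.14 and -1.58 for 5 macrophage genes. The part of these cells in the genotype differences of muscle genes was not tested.

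Markers of satellite cells and new fibers gave few of these UMIs, which does not measure the share of such cells. *Pax7*, the transcription factor of satellite cells, had 35 UMIs in all muscle spots and was at 9.23, 3.57, 17.0 and 9.79 CPM. The embryonic myosin *Myh3* was at 24.6, 14.3, 143 and 22.7 CPM, highest in section 2 control, and the perinatal myosin *Myh8* at 12.3, 116, 109 and 94.0 CPM, lowest in section 1 control. Apart from *Des*, which mature fibers also carry, the most abundant gene of the regeneration list was *Cdkn1a*, an inhibitor of the cell cycle, at 169, 168, 245 and 153 CPM.

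*Myh4* gave the most adult myosin UMIs of the muscle around the callus. The UMIs of *Myh4*, *Myh1*, *Myh2* and *Myh7* were taken as shares of their sum. These shares depend on how well each probe works, and the fast myosins are similar in sequence, so probes may not separate them fully. *Myh4* gave 73.2% (72.6 to 73.9) in section 1 control, 67.9% (67.3 to 68.4) in section 1 Nf1Postn, 52.3% (51.4 to 53.2) in section 2 control and 76.2% (76.0 to 76.4) in section 2 Nf1Postn. *Myh1*, the myosin of the next slower fast fibers, gave 24.5%, 29.7%, 44.1% and 21.2%. The genotypes thus had no common order: the *Myh4* share was lower in Nf1Postn on section 1 and higher on section 2.

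In section 2 control few spots held much of the *Myh1*. There, 5 of 72 spots, with 10266 to 20656.5 UMIs each, held 43.8% of all *Myh1* UMIs, and the median share of *Myh4* in a spot was 70.6%, against 75.4%, 72.1% and 78.6% in the other groups. Among the 1049 spots with a single highest myosin, *Myh4* led in 989 (94.3%) and *Myh1* in 60, and neither *Myh2* nor *Myh7* led in any. *Myh2*, the myosin of fast oxidative fibers, gave 2.03%, 2.27%, 3.26% and 2.24% of the UMIs.

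*Myh7*, the slow myosin, had few UMIs. It gave 0.248%, 0.15%, 0.356% and 0.406% of adult myosin UMIs and was detected in 9, 32, 15 and 227 spots. The most in 1 spot was 25, 8, 17 and 35 UMIs. *Tnnt1*, the slow troponin T, was at 145, 121, 275 and 235 CPM, and *Myl2*, the light chain of slow fibers, at 33.8, 42.8, 13.6 and 72.9 CPM. Only 4 of the 14 slow fiber genes in the tables had enough UMIs in both sections to be compared between genotypes.

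**Figure D3:**
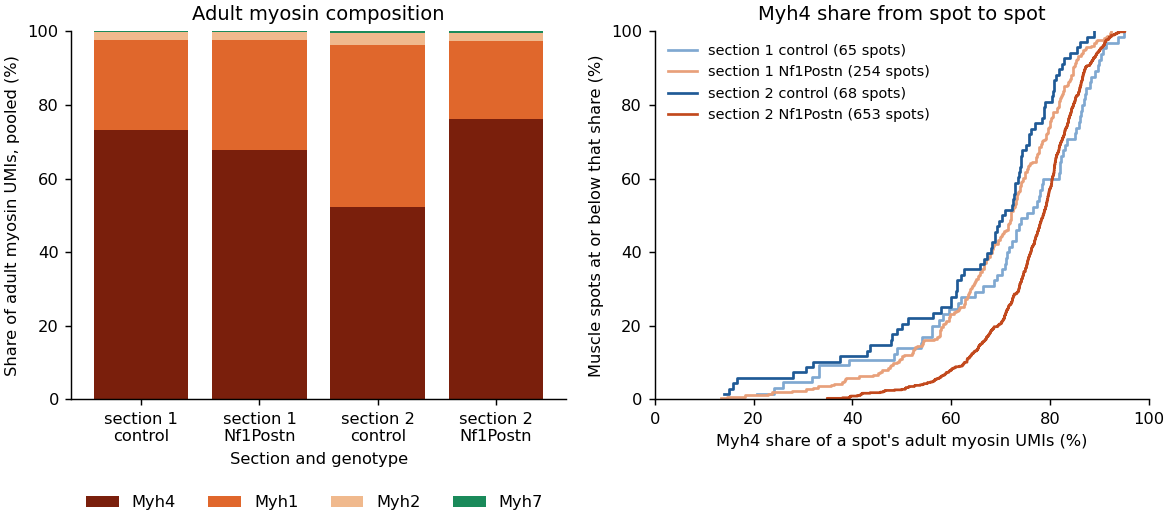
Left, share of each adult myosin in the pooled adult myosin UMIs (%) of the muscle spots by section and genotype. Right, share of *Myh4* in single spots with at least 20 adult myosin UMIs, drawn as the percentage of spots at or below each share; the curves of section 1 Nf1Postn and section 2 control run to the left of section 2 Nf1Postn, with medians of 72.1%, 70.6% and 78.6%.

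Fiber composition was patchy at the scale of neighboring spots in the groups that gave a value, which section 2 control did not. The *Myh4* share of a spot and the mean share of its muscle neighbors correlated with Pearson's r of 0.68 over 24 spots of section 1 control, 0.52 over 140 spots of section 1 Nf1Postn and 0.53 over 573 spots of section 2 Nf1Postn. Neighboring spots share fibers and section depth, so these values are descriptive. Across muscle spots, the genes whose log2 level followed *Myh4* most closely among 4662 genes were *Ckm*, with a mean Spearman's rho of 0.78 over the 4 groups, *Pvalb* at 0.77, *Tnnc2* and *Tnnt3* at 0.70 each and *Mylpf* at 0.66. Those closest to *Myh1* were *Tpm2*, a tropomyosin, at 0.51, *Des* at 0.38, and *Mylpf*, *Tcap* and *Acta1* at 0.37, 0.37 and 0.36. *Myh2* went with *Tcap* at 0.45, *Mb* at 0.37, the chaperone *Cryab* at 0.36, and *Slc25a4* and *Cox6a2*, a subunit of cytochrome c oxidase, at 0.35 each. *Myh7* went with *Tcap* at 0.26, the slow troponins *Tnnt1* and *Tnnc1* at 0.25 and 0.20, *Myh2* at 0.20 and *Prkar2a* at 0.18. All of these points share libraries and differ in depth, and the rank correlations of the rarer myosins are weak.

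Between the genotypes few genes differed by 2-fold the same way on both sections. Among the 2834 genes with at least 50 UMIs over the muscle spots of each section, 6 (0.212%) were at least 2-fold higher in Nf1Postn on both and 11 (0.388%) at least 2-fold lower. The sections had the same direction for 51.3% of the 2834 genes, and the median log2 ratio of all was -0.11. Scaling by trimmed mean of M values (TMM) factors, which correct for the most abundant genes, moved this median by 0.28 to 0.17 and the calls to 12 higher and 5 lower, and median-of-ratios factors moved it by 0.19 to 0.07 and the calls to 9 and 6. The 6 higher genes stayed among the calls under both scalings, as did 5 and 6 of the 11 lower genes. Of the 178 listed genes with enough UMIs to be compared, only *Pdk4* (mitochondria and fat use) and *Mbp* (Schwann cells) were among the 6, and only *Acta2* (smooth muscle) was among the 11. In spots with at least 3000 UMIs 1305 genes had enough UMIs to be compared, 1 of the 6 and 4 of the 11 among them, and none of these 17 genes was called. The pooled log2 ratios kept their sign there, at 2.17 for *Pdk4* and -3.15 for *Ccl8*. A higher marker threshold of 2000 CPM left 1 of the 6 and 0 of the 11 called, with 2 and 0 of them compared, and a lower one of 500 CPM left 3 of the 6 and 3 of the 11, with all of them compared.

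The 6 higher genes were *Pdk4*, *Mbp*, *Slc25a25*, *Klhl33*, *Armc1* and *Gadd45g*, and some reach 50 UMIs in section 1 mainly through Nf1Postn, as *Armc1* with 9 control and 49 Nf1Postn UMIs, *Mbp* with 9 and 50, and *Pdk4* with 15 and 84. *Pdk4* (chr6:5483351-5496310), the kinase that shuts pyruvate dehydrogenase and so shifts fibers from glucose to fat as fuel, was at 46.1 CPM in section 1 control, 150 in section 1 Nf1Postn, 44.2 in section 2 control and 162 in section 2 Nf1Postn. The pooled log2 ratio was 1.82 (1.27 to 2.43), from 28 control UMIs. *Slc25a25* (chr2:32304499-32341458), a calcium-regulated carrier of ATP and magnesium in mitochondria, was at 55.4, 116, 44.2 and 152 CPM, a log2 ratio of 1.54 (1.01 to 2.11). The control values of *Slc25a25* rest on 18 and 13 UMIs. *Gadd45g* (chr13:52000714-52002505), a stress-induced gene, was at 166, 339, 160 and 398 CPM, a log2 ratio of 1.25. *Klhl33* (chr14:51126039-51134965), of the kelch family, was at 64.6, 155, 61.2 and 170 CPM, and *Armc1* (chr3:19185566-19217230) at 27.7, 87.4, 27.2 and 62.7 CPM, with 17 control UMIs. *Mbp*, a protein of nerve myelin, was at 27.7, 89.2, 78.1 and 196 CPM.

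The 6 genes were also counted outside the muscle spots. The log2 ratio of Nf1Postn over control in the remaining spots was 1.35 for *Pdk4*, 1.66 for *Klhl33* and 1.80 for *Mbp*, and thus also positive. For *Slc25a25*, *Armc1* and *Gadd45g* it was 0.29, 0.53 and -0.16. Muscle transcripts reach those spots too, so they are no muscle-free comparison.

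*Ccl8* and *Sfrp2* had the largest ratios among the 11 genes lower in Nf1Postn. *Ccl8* (chr11:82006011-82007626), a chemokine that attracts monocytes, was at 132, 24.97, 197 and 21.2 CPM with a pooled log2 ratio of -2.90 (-3.37 to -2.44). *Sfrp2* (chr3:83673628-83681624), a secreted modulator of WNT signaling made by fibroblasts, was at 157, 71.3, 258 and 41.9 CPM, a log2 ratio of -2.12. Some of these genes reach 50 UMIs in section 1 mainly through control, as *Ccl8* with 43 control and 14 Nf1Postn UMIs and *Ifitm3* with 36 and 19. The membrane proteins *Bst2* (chr8:71986899-71990101) and *Ifitm3* (chr7:140589499-140590684) were at 221, 105, 306 and 84.6 CPM and at 111, 33.9, 112 and 40.4 CPM, with log2 ratios of -1.57 and -1.51, and *Ly6e*, a protein anchored in the cell membrane, was at 280, 119, 306 and 115 CPM, a log2 ratio of -1.34. The remaining genes of the 10 with the largest ratios were the lysosomal protease *Lgmn* at -1.43, the matrix protein *Matn4* at -1.31, the secreted chaperone *Clu* at -1.21, *Gm13889* at -1.20 and *Acta2*, the actin of smooth muscle, at -1.12. In the other spots the log2 ratio was -1.07 for *Ccl8*, -1.88 for *Sfrp2*, -0.84 for *Bst2*, -0.59 for *Ifitm3* and -0.40 for *Ly6e*. It was -0.25 for *Lgmn*, -0.14 for *Matn4*, -0.36 for *Gm13889* and -0.90 for *Acta2*, and for *Clu* it was positive, at 0.49. The fibroblast sums beside these genes were 30468 and 31931 CPM in control and Nf1Postn of section 1 and 61425 and 24136 CPM in section 2, and the macrophage sums 800 and 719 CPM and 1430 and 507 CPM. Their part in these ratios was not tested.

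Since no control muscle spot was inner, the comparison was repeated with border spots alone, a setting chosen after the values were seen. Of 2739 genes compared, it gave 4 higher and 7 lower, all of which were among the 6 and the 11. The control spots were the same ones, and 674 of the 911 Nf1Postn spots stayed. The overlap was therefore largely fixed in advance and is no separate support for the calls. *Nf1* itself was at 49.2, 32.1, 40.8 and 34.1 CPM in the muscle spots, from 133 UMIs, and *Postn*, whose promoter drives Cre, at 240, 262, 781 and 177 CPM. The positions of the *Nf1* probes are not given in the sources used here, so the level of *Nf1* does not check the deletion.

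**Figure D4:**
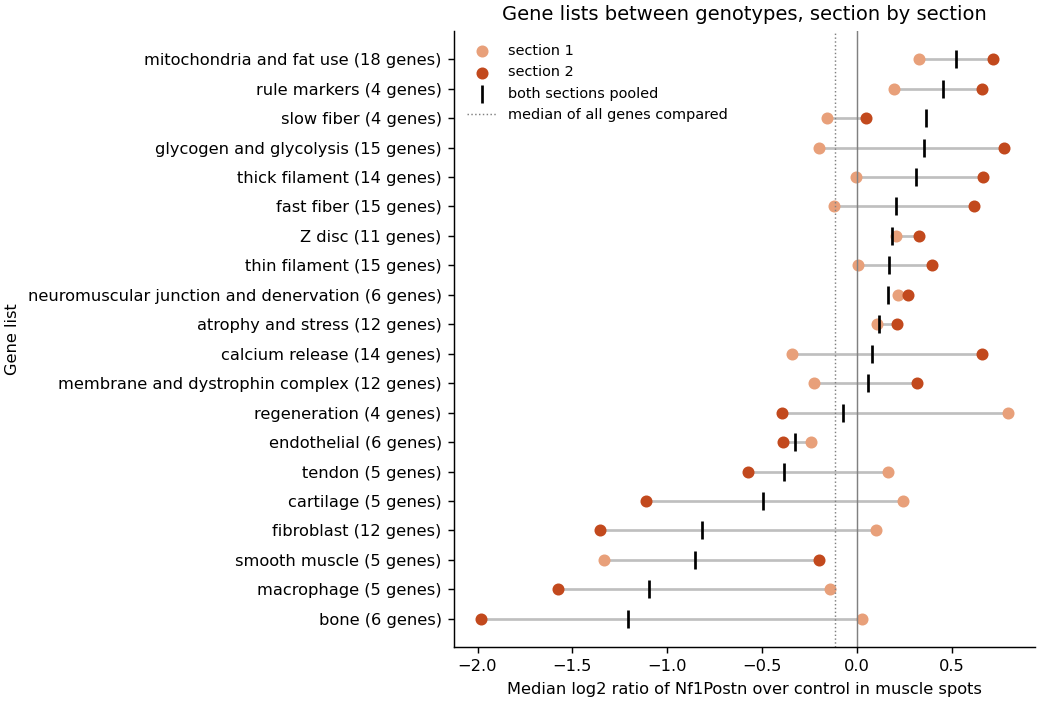
Median log2 ratio of Nf1Postn over control in the muscle spots for gene lists with at least 4 compared genes, by section (circles) and pooled (black marks), with a dotted line at the median of all compared genes (-0.11). Most muscle lists lie near 0 in section 1 and to the right in section 2. The rule marker, mitochondria and fat use, Z disc, neuromuscular junction, and atrophy and stress lists are positive in both. Thin filament genes are at 0.00 in section 1 and 0.39 in section 2, and the regeneration list at 0.80 and -0.40. Fibroblast, macrophage, bone and cartilage lists lie farther to the left in section 2 than in section 1.

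Within the Nf1Postn muscle, the fibroblast list summed to 28478 CPM at the border and 18781 CPM inside, and the macrophage list to 637 and 333 CPM. The neutrophil and marrow list summed to 225 and 72.1 CPM and the erythroid list to 1762 and 830 CPM. The adipocyte list went the other way, at 9723 and 11238.5 CPM. These sums pool the sections, and section 1 gave 239 of the 674 border spots but only 16 of the 237 inner ones. Over all Nf1Postn muscle spots the neutrophil and marrow list summed to 435 CPM in section 1 and 123 CPM in section 2. Position and section are therefore mixed in these sums, and their parts were not tested. Of 1712 genes compared, 17 (0.993%) were at least 2-fold higher at the border in both sections and 0 (0%) at least 2-fold lower. The inner spots of section 1 were 16 with 33604 UMIs in all, so 12 of the 17 genes rest on 3 or fewer UMIs there. A gene could reach 50 UMIs in section 1 almost only through its border spots, so the count of 17 is no support for a difference and the values of section 2 are given as the better counted ones. *Dlk1*, an inhibitor of fat cell formation that is also made by growing fibers, was at 56.6 CPM at the border and 15.4 CPM inside in section 2, and at 182 CPM against 0 UMIs in section 1, which is at least 1.03 on the log2 scale when 3 counts stand for the 0. *Cd74*, the invariant chain of antigen-presenting cells, was at 1013 CPM at the border of section 1, where the inner spots had 5 UMIs, and at 659 CPM at the border and 259 CPM inside in section 2. *Mfap2*, of elastic microfibrils, was at 94.95 and 34.1 CPM in section 2, *Tnxb*, a tenascin of connective tissue, at 172 and 67.1 CPM, and *Sost*, the WNT inhibitor of osteocytes, at 65.1 and 30.8 CPM. The 11 compared fibroblast genes had a median log2 ratio of 0.68, with *Col3a1* as the gene called, and the mitochondria and fat use list one of -0.38, against 0.05 for all genes. Contractile UMIs made up 22.1% at the border and 24.7% inside.

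The same contrast appeared with distance from the skeleton of the callus. In Nf1Postn, 347 muscle spots lay up to 500 µm from the nearest cartilage or bone spot, 328 from 500 to 1000 µm and 236 farther away. *Col1a1* was at 9117, 6913 and 4777 CPM over these bins, and the macrophage list summed to 762, 587 and 311 CPM. The mitochondria and fat use list went from 12391 to 14049 and 18288 CPM, and *Ckm* from 31899 to 36425 and 38643 CPM. Contractile genes also went up from the first to the second bin, with a share of 20.2%, 23.9% and 23.9% of UMIs and *Myh4* at 38344, 48083 and 49330 CPM. The stromal values given here were thus lower and the muscle values given here higher in the Nf1Postn spots beyond 500 µm. Within sections *Myh7* did not follow. In the first 2 bins it was at 87.5 and 71.8 CPM in section 1 Nf1Postn and at 238 and 229 CPM in section 2 Nf1Postn. In section 1 control it was at 286 and 11.9 CPM. The last bin was section 2 alone but for 2 spots. In the control, 106 spots lay up to 500 µm away and 33 from 500 to 1000 µm, 1 of these in section 2. Within section 1 control *Col1a1* was at 10827 and 6534 CPM in these bins, from 35 and 32 spots. Within 500 µm alone, *Ckm* was at 22112, 31765, 14223 and 32009 CPM in the 4 groups.

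**Figure D5:**
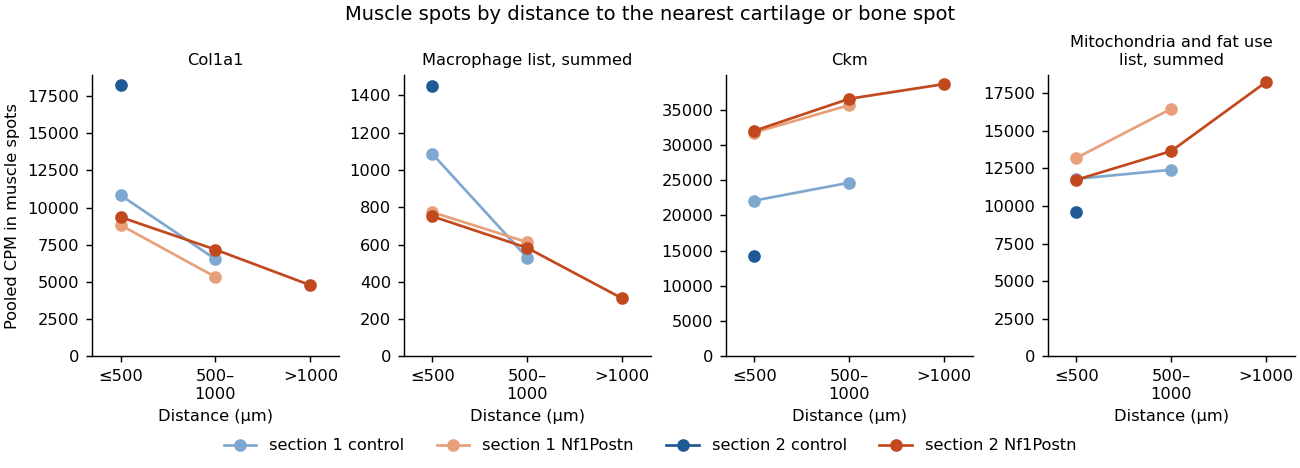
Pooled CPM of *Col1a1*, the summed macrophage list, *Ckm* and the summed mitochondria and fat use list in muscle spots by distance (µm) to the nearest cartilage or bone spot, for bins of at least 20 spots in each section and genotype. *Col1a1* and the macrophage list decline with distance in each group with more than 1 bin, and section 2 Nf1Postn reaches 18237 CPM for the mitochondria and fat use list beyond 1000 µm.

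Some of the muscle carried embryonic myosin. Spots in which *Myh3*, *Myh8* and *Tnnt2*, the embryonic and perinatal myosins and the troponin T of immature fibers, summed to at least 1000 CPM numbered 102, of which 26 also met the rule for mature muscle, 22 of them among the 76 such spots of Nf1Postn. In Nf1Postn they lay at a median position of 2550 and 2100 µm along the capture area, against 4900 and 4750 µm for the mature spots. In control the positions were 1650 µm against 650 µm in section 1, from 5 embryonic spots, and 1300 µm against 3425 µm in section 2. The 76 spots that were embryonic only held *Myog*, the factor of muscle differentiation, at 214 CPM, the 26 with both at 152 CPM and the 1024 that were mature only at 30.7 CPM. *Myh4* had the opposite order, at 14541, 26178 and 44278 CPM, and so had *Ckm*, at 11594, 22556 and 33552 CPM. *Col1a1* was at 18953 CPM in the 76 spots that were embryonic only, 9321 CPM in the 26 with both and 7797 CPM in the 1024 that were mature only. *Myh1* gave 48.7% of adult myosin UMIs in the 102 embryonic spots and 23.8% in all mature spots. The embryonic genes *Myh3*, *Myh8* and *Tnnt2* and the 4 mature markers chose these spots, and the contrast in *Myog*, *Myh4*, *Ckm* and *Col1a1* is a description of 2 groups that overlap by 26 spots.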

How the data were processed

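The authors prepared probe-based Visium libraries from formalin-fixed sections, and the submitters' processing notes name Space Ranger 1.3.0 and mm39. Per section they deposited a table of UMIs per gene and spot without normalization, which was handled with the unit of expected counts because 9 named genes whose symbols join several gene identifiers, and 1 unnamed entry, hold values that are not whole. The unnamed entry (6.8e-05% and 3.8e-05% of UMIs in sections 1 and 2) was left out. The authors also deposited the genotype of each spot and its grid position, and how the border between genotypes was drawn is not given in the sources used here. Of 6380 spots under tissue, 5 had no genotype, and 456 of the others had under 1000 UMIs. Gene coordinates are those of the deposited tables.

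UMIs were pooled over the muscle spots of a section and genotype and expressed as CPM. A gene was called when its ratio was at least 2-fold the same way in both sections, among genes with at least 50 UMIs over the muscle spots of each section. Where a group had 0 UMIs, 3 counts stood in for it and the ratio is a bound. Exact Poisson and binomial 95% intervals cover counting error only, and spots and sections were not treated as replicates, so no test was run. Named genes are the 4 of the rule, members of the 26 hand-written lists (286 of 297 listed genes were in the tables), the 10 largest ratios each way between genotypes, the 10 highest ratios of muscle to remaining spots (genes with 500 or more UMIs in muscle), the 5 largest ratios each way between border and inner spots, and the 5 genes that followed each adult myosin most closely by Spearman's rho on log2(CPM + 1), among genes detected in at least 10% of muscle spots. The members, lists and rules were chosen with earlier results of these data known. Alternatives were other thresholds for markers and depth, thinning to 1000 UMIs, mean CPM per spot, 1 section left out, no minimum of UMIs, inner or border spots alone, and scaling by edgeR 4.0.16 (trimmed mean of M values, TMM) or DESeq2 1.42.0 (median of ratios) in R 4.3.3. The code was checked on simulated counts and used Python 3.11.15, numpy 2.4.6, scipy 1.17.1, pandas 2.3.3 and matplotlib 3.10.9.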

Additional observations from a re-analysis of the deposited data

Results flagged for a closer look

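Muscle transcripts were also present in spots with under 1000 UMIs, which no comparison of the report used. The summed level of *Myot*, *Ckmt2*, *Scn4a* and *Asb2* in the 215 such Nf1Postn spots of section 1 was 975 CPM (813 to 1160), above the 292 CPM (126 to 576) of the 45 control spots. In section 2 it was 1065 CPM (857 to 1307) in 113 Nf1Postn spots and 586 CPM (410 to 811) in 83 control spots. All spots with at least 1000 UMIs had the same order. Their level was 496 CPM in Nf1Postn and 115 CPM in control of section 1, and 1161 and 183 CPM in section 2. At this depth 1 marker UMI is enough to pass 1000 CPM, and 8, 79, 27 and 62 of these spots did so in section 1 control, section 1 Nf1Postn, section 2 control and section 2 Nf1Postn. The difference between genotypes in these spots was not tested, since the sections were not counted as separate animals.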

How the results depend on the processing

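Of the genes named in the text, the 6 higher and the 10 lower between genotypes kept their direction under every alternative that gave a value: 151 of their 224 values moved by no more than the spread between sections and 73 by more. These genes were chosen for a 2-fold ratio the same way in both sections. Leaving out 1 section or changing the scaling, which shifts all genes alike, therefore could not turn them. The log2 ratio of *Mbp* was 0.75 within 500 µm of skeletal spots, that of *Armc1* 0.59 at 500 CPM and that of *Clu* -0.54 with thinned spots. The median ratio of 17 of 25 gene lists between genotypes changed sign under at least 1 alternative, 15 of them with 1 section left out. The 139 control and 911 Nf1Postn muscle spots became 36 and 441 at 2000 CPM, 90 and 436 with at least 3000 UMIs per spot, and 0 and 237 with inner spots alone. At 500 CPM they numbered 399 and 1323. With 1 section left out they ranged from 67 to 72 and from 255 to 656. Counts of called genes do not stand for the same genes throughout. With at least 3 marker UMIs 3 of the 6 higher genes were called, with 5 of the 6 compared, and all 11 lower genes stayed. With mean CPM per spot 4 of the 6 and 9 of the 11 were called, with all of them compared. Each count is given beside the genes compared, which ranged from 693 to 14116, so a larger count is not a larger share. Genes called higher in Nf1Postn numbered 6 of 2834 in the report and 11 of 5632 at 500 CPM (3 of the 6 among them). They numbered 12 of 2834 with TMM factors and 0 of 1305 with at least 3000 UMIs. Spots thinned to 1000 UMIs gave 3 of 822 (1 of the 6), mean CPM per spot 10 of 2834 and no minimum of UMIs 121 of 14116. They numbered 65 of 2835 without section 2 and 337 of 6858 without section 1. Genes called lower numbered 11 of 2834 in the report and 3 of 693 at 2000 CPM (0 of the 11). At 500 CPM 25 of 5632 were called lower (3 of the 11). Of 2834 compared, 5 were called lower with TMM factors and 6 with median-of-ratios factors. At least 3000 UMIs gave 6 of 1305 (0 of the 11) and thinned spots 4 of 822 (1 of the 11). No minimum gave 719 of 14116. Without section 2 there were 32 of 2835, and without section 1 896 of 6858. Other settings were added after the data were seen. They gave 10 higher genes of 2730 over 500 µm from the other genotype and 14 of 2079 with at least 15% contractile UMIs. Lower genes were 7 of 2739 with border spots alone and 5 of 1656 up to 500 µm from skeletal spots. At least 15% contractile UMIs left 4 of the 6 and 4 of the 11 called, with 4 and 5 of them compared. Up to 500 µm from skeletal spots 2 of the 6 and 4 of the 11 were called, with 4 and 7 compared. The mitochondria and fat use list moved from 0.52 to 0.81 with TMM factors, which shift the ratio of every gene by 0.28. With 1 section left out the *Myh4* share ranged from 67.9% to 76.2% in Nf1Postn and from 52.3% to 73.2% in control. At 2000 CPM it was 74.4% in Nf1Postn and 75.4% in control. With the rule of the report the pooled shares were 74.8% and 65.5%, in the opposite order. Genes higher at the border numbered 17 in the report, 0 at 2000 CPM, 116 at 500 CPM, 7 with at least 3 marker UMIs and 6 with thinned spots, and 162 to 357 with 1 section left out. The border ratio of the fibroblast list ranged from 0.58 to 1.32 with 1 section left out, and that of the mitochondria and fat use list was -0.51 at 500 CPM and -0.28 with thinned spots. Fewer genes reach 50 UMIs under stricter settings (693 at 2000 CPM and 1305 with at least 3000 UMIs, of 2834), and with 1 section left out a gene needs 2-fold in that section only; otherwise the cause was not tested. Inner spots alone gave no genotype value, for want of control inner spots, and at least 3000 UMIs gave no border value. Control muscle spots held 619552 UMIs in all.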
